A study of Mus musculus with 6 samples.

Results

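The genes of cholesterol and fatty acid synthesis were followed in mouse pancreatic acinar cells with and without cerulein pancreatitis. They are 39 of the 21949 genes in the deposited table, taken by gene symbol with no filter on their values. The list was chosen with earlier results of these data known. By role, 5 belong to SREBP control, 6 to the mevalonate segment, 12 to the sterol segment, 11 to fatty acid synthesis and 5 to glycerolipid synthesis. RNA was sequenced in 6 libraries of FACS-sorted acinar cells from adult CD1-enriched mice, all of genotype ElastaseCreER/ROSA26YFP. In this model the elastase promoter, which is active in acinar cells, drives an inducible Cre, and recombined cells and their descendants carry a YFP reporter. The WT group held 3 libraries labelled without cerulein, and the WT+Cerulein group held 3 libraries from mice given cerulein. Cerulein, a cholecystokinin analogue, drives acinar secretion past its normal range and is a common means of inducing pancreatitis in mice. It was given in 7 injections on each treatment day, every second day within a 3-day span, before 1 day of recovery. The labelled dose carries an implausible unit and is left out. The libraries are numbered 1 to 3 within a group, and nothing says that each came from a separate mouse, so p-values measure only how these samples vary, which may be technical.

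Sterol regulatory element-binding proteins (SREBPs) are transcription factors made as precursors in the membrane of the endoplasmic reticulum. When sterols are scarce, SCAP escorts them to the Golgi, where they are cut and released to switch on genes of cholesterol and fatty acid synthesis. When sterols are plentiful, INSIG proteins hold SCAP back. The product of Srebf2 acts mainly on cholesterol genes and that of Srebf1 mainly on fatty acid genes, and INSIG1 is itself a target of the pathway. Acinar cells are rich in endoplasmic reticulum and secretory membrane, both built from these lipids.

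Values are FPKM, the number of fragments relative to transcript length and library total, summed over the transcripts of a gene. The deposited cells had in part lost their decimal mark. It was restored from the whole number of fragments behind each FPKM and from agreement within the group. At an assumed spread within the group of 0.6 log2, 35 of the 39 members could be placed in every library. At a transcript length of 2000 bases, 1 FPKM stood for 6.45 to 8.09 fragments in the WT libraries and for 23.1 to 34.0 fragments in the cerulein libraries, so levels near 1 FPKM rested on fewer fragments in WT. The labelled cell type matched its markers, since the 16 acinar markers placed in every library summed to between 395430 and 405052 FPKM in WT and still to between 54027 and 97277 FPKM after cerulein. Of these 16, 15 fell after cerulein. Among the macrophage and myeloid markers 9 of the 11 tested rose, and their 12 placed genes summed to between 2.28 and 28.2 FPKM in WT and to between 57.0 and 109 FPKM after cerulein. Among the fibroblast and stellate markers 7 of the 9 tested rose, from a sum of 2.55 to 49.4 FPKM in WT to a sum of 257 to 380 FPKM. Of the ductal markers 3 of the 6 tested rose and 1 fell, and of the cycling cell markers 2 of the 6 tested rose. None of the few tested endothelial and endocrine markers passed. Over all 6891 tested genes, 504 rose and 407 fell. Genes were tested if they had at least 1 FPKM in at least 3 libraries. The markers Adgre1, Coro1a, Itgam, Fcgr3, Krt7, Postn, Top2a and Mki67 were under 1 FPKM in every WT library. They entered the test only because they were high after cerulein. Among the other markers that rose, Cd53, Cd14, Cd68, Csf1r, Mrc1, Col1a1, Col1a2, Fbn1 and Lum reached 1 FPKM in WT only in library 1. Their test rested on the cerulein libraries as well. The 10 markers of adipocytes, cells that make much fat, summed to 0.735 to 4.01 FPKM in WT and to 2.14 to 3.11 FPKM after cerulein. Of these, 6 were at 0 in all WT libraries, among them Adipoq, Lep, Cfd and Fabp4. Plin1 was at 1.62, 0.273 and 0 FPKM in WT libraries 1 to 3, and Cidec at 0.899, 0 and 0 FPKM. Lipe was at 1.49, 0.298 and 1.27 FPKM there, and Car3 at 0, 0.164 and 0 FPKM. The part of other cell types in the results below was not tested, and in bulk samples fewer cells of a type and less RNA per cell cannot be told apart. WT library 1 stood apart from the other WT libraries, with the highest sums of the macrophage, fibroblast and adipocyte markers. It also held 14.3 FPKM of the endothelial gene Eng, which was at 0 in WT libraries 2 and 3.

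Of the tested synthesis genes 1 passed the threshold, and for most of them the interval of the fold change was wide. Of the 39 members, 25 passed the filter of at least 1 FPKM in at least 3 libraries with every value placed, and these were tested with limma on log2(FPKM + 1), with Benjamini-Hochberg adjustment over all 6891 tested genes at 0.05. After cerulein 1 member fell (Dhcr7), none rose, and 24 did not pass. Of all tested genes 13.2% passed in either direction and 5.91% passed as lower. At an unadjusted p under 0.05 stood 5 of the 25 members, 1 with a higher and 4 with a lower level after cerulein, against 28.5% of all tested genes. The median log2 fold change of the 25 members was -0.08, beside 0.10 for all tested genes. A value below the threshold is no sign of equal levels here. On the log2(FPKM + 1) scale the 95% interval lay within 1 log2 unit in either direction for 7 members and reached beyond it for 18. That scale understates changes of low genes, so an interval within this span can still allow more than a 2-fold change in FPKM. The groups did not overlap for 8 of the 25 tested members, with cerulein below WT in 7 and above it in 1, where 33.1% of all tested genes did not overlap, 15.0% with cerulein below and 18.2% with cerulein above.

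**Figure D1:**
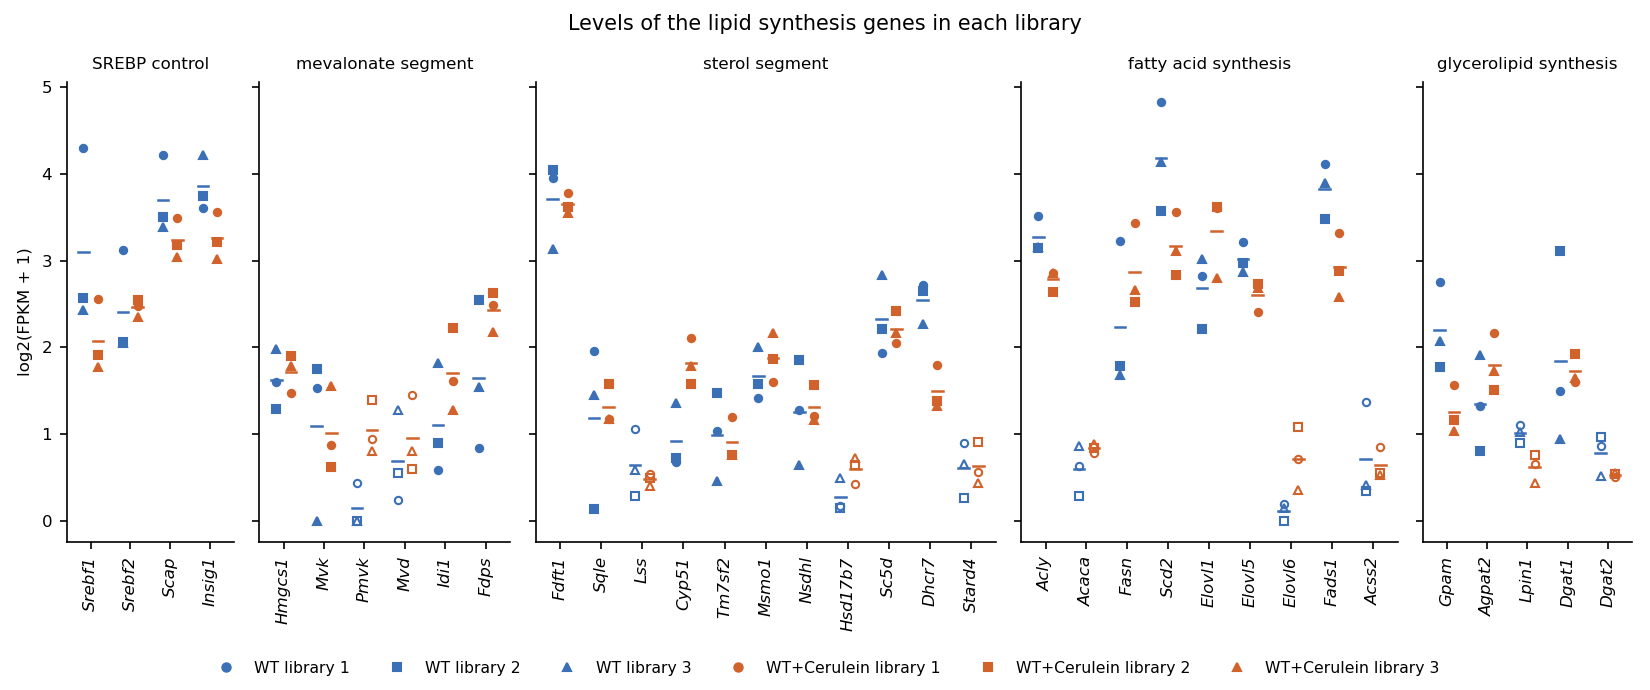
Each point is the level of 1 gene in 1 library, as log2(FPKM + 1) on the vertical axis, for the 35 members placed in every library, grouped by role. Blue is WT, orange is WT+Cerulein, symbols give the library number, short bars are group means and open symbols mark the 10 genes under the filter. Most pairs of groups overlap, and Dhcr7 is the gene whose difference passed the threshold.

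In the control of SREBPs, 4 of the 5 genes were tested and none passed. Srebf1 stood at 18.7, 4.95 and 4.40 FPKM in WT libraries 1 to 3 and at 4.87, 2.76 and 2.41 FPKM in cerulein libraries 1 to 3. WT library 1 lay far above the other WT libraries, and cerulein library 1 overlapped them (limma log2 fold change -1.02 with SE 0.48, adjusted p 0.19). Without WT library 1 the log2 fold change of Srebf1 was -0.42. Srebf1 shares exon bases with Rai1, and the library kit, as named in the labels, does not mark strand, so such shared reads cannot be assigned with certainty; 14 of the 39 members share exon bases with another annotated gene. Srebf2 was at 7.69, 3.17 and 3.13 FPKM in WT and at 4.58, 4.83 and 4.11 FPKM after cerulein. The cerulein libraries fell between WT library 1 and the other WT libraries, and the log2 fold change was 0.05, with a 95% interval from -0.72 to 0.82.

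The SREBP escort and its anchor also gave no call. Scap, the escort, was measured at 17.6, 10.3 and 9.48 FPKM in WT and at 10.2, 8.03 and 7.26 FPKM after cerulein, so the groups overlapped by 1 library (log2 fold change -0.47, limma adjusted p 0.378). Insig1, the anchor that is a target of the pathway, was at 11.1, 12.4 and 17.6 FPKM in WT and at 10.8, 8.31 and 7.07 FPKM after cerulein. Every cerulein library lay below every WT library, by a narrow margin between WT library 1 and cerulein library 1, and the difference did not pass (limma log2 fold change -0.59 with SE 0.31, adjusted p 0.234). For Insig2, the second anchor, the decimal marks of the cerulein libraries were not placed. The likeliest values were 2.59, 2.35 and 6.25 FPKM in WT and 4.40, 6.38 and 3.37 FPKM after cerulein, and the placements possible in any library ran from 2.35 to 559 FPKM.

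In the mevalonate segment, which builds the isoprenoid units of sterols, 4 of the 6 genes were tested and none passed. Hmgcs1, which makes HMG-CoA, stood at 2.04, 1.45 and 2.94 FPKM in WT and at 1.78, 2.74 and 2.44 FPKM after cerulein. These ranges overlapped almost fully, with a log2 fold change of 0.09 and a 95% interval from -0.59 to 0.77. Idi1, the isomerase of the isoprenoid units, was at 0.498, 0.862 and 2.53 FPKM in WT and at 2.06, 3.67 and 1.42 FPKM after cerulein. Fdps, which joins those units into farnesyl diphosphate, was at 0.796, 4.82 and 1.92 FPKM in WT and at 4.61, 5.18 and 3.53 FPKM after cerulein. For both genes WT libraries spread over a wide range that reached into the cerulein values, and the log2 fold changes of 0.60 and 0.79 had limma adjusted p of 0.348 and 0.242. Mvk, the mevalonate kinase, rested on at most 7 fragments per WT library and gave a log2 fold change of -0.08. The kinase Pmvk and the decarboxylase Mvd lay under the filter. Pmvk, singled out after its values were seen, was at 0.349 FPKM in WT library 1, from 1 fragment, at 0 in the other WT libraries, and at 0.930, 1.63 and 0.747 FPKM after cerulein. A count of 0 allowed up to 0.729 FPKM in WT library 2 and 0.668 FPKM in WT library 3 (3 fragments, counting error only), and with no filter the limma adjusted p was 0.102.

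The sterol segment, from squalene to cholesterol, held the only call. Dhcr7 encodes the reductase of the last step, which turns 7-dehydrocholesterol into cholesterol, and lies at chr7:143823145-143848410 (GRCm38), where no other annotated gene shares its exon bases. Its level was 5.60, 5.29 and 3.80 FPKM in WT libraries 1 to 3, from 47, 51 and 39 fragments, and 2.46, 1.61 and 1.51 FPKM in the cerulein libraries, from 75, 61 and 64 fragments. All cerulein libraries lay below all WT libraries. The means were 4.90 ± 0.961 FPKM in WT and 1.86 ± 0.524 FPKM after cerulein (SD, n = 3 each), and the log2 fold change on the log2(FPKM + 1) scale was -1.05 (SE 0.30, limma adjusted p 0.0439). The call was lost without WT library 2 (limma adjusted p 0.0985) and without cerulein library 1, 2 or 3 (0.0723, 0.214 and 0.222), and over all alternatives the adjusted p ran from 0.0232 to 0.222. Scaling the libraries to the sum outside the secreted acinar proteins gave a log2 fold change of -0.63 with a limma adjusted p of 0.145. The call was lost as well with a pseudocount of 0.1 (limma adjusted p 0.0517) and with no filter (0.0877).

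Cyp51, the lanosterol demethylase at chr5:4081145-4104746, went the other way among the sterol genes without passing. It stood at 0.606, 0.656 and 1.56 FPKM in WT, from 8, 10 and 26 fragments, and at 3.31, 1.98 and 2.44 FPKM after cerulein, from 158, 119 and 172 fragments. Every cerulein library lay above every WT library (limma log2 fold change 0.90 with SE 0.31, adjusted p 0.086). The difference passed without WT library 3 (limma adjusted p 0.0436) and with scaling outside the secreted proteins (log2 fold change 1.23, limma adjusted p 0.0177). In WT it reached 1 FPKM only in library 3, so its test rested on the cerulein libraries as well. Cyp51 shares exon bases with Akap9.

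The other sterol genes did not pass. Fdft1, the squalene synthase and the sterol gene of highest level among those placed, was at 14.5, 15.4 and 7.79 FPKM in WT and at 12.7, 11.3 and 10.7 FPKM after cerulein. The cerulein values sat inside the WT range, with a log2 fold change of -0.06 and a 95% interval from -0.77 to 0.65; Fdft1 shares exon bases with the cathepsin gene Ctsb. Sqle, the epoxidase that commits squalene to sterols, was at 2.88, 0.1 and 1.74 FPKM in WT and at 1.25, 1.99 and 1.26 FPKM after cerulein, where the low WT value came from 1 fragment. Lss, the cyclase that forms lanosterol, lay under the filter at 1.08, 0.219 and 0.5 FPKM in WT and at 0.456, 0.403 and 0.319 FPKM after cerulein. Tm7sf2, Msmo1, Nsdhl and Sc5d, which act between lanosterol and the last steps, had log2 fold changes between -0.12 and 0.21 and did not pass. Hsd17b7 and the sterol carrier Stard4 lay under the filter in overlapping groups. The isomerase Ebp could not be placed in any library, with possible levels from 2.38 to 310 FPKM.

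SREBPs bind a sterol regulatory element in their target promoters, commonly beside a CCAAT box or a GC box, bound by NF-Y and Sp1. RefSeq promoters (GRCm38.p6) were found for 30 of the 39 members, and the 250 bases before the first listed start of each gene were searched on both strands. The element TCACNCCAC was in 1 of the 30 (Hmgcs1), or 3.33%, and in 1.04% of the 27025 genes with a promoter. The letters CCAAT were in 22 of the 30 (73.3%) and in 34.5% of all genes, and GGGCGG was in 20 of the 30 (66.7%) and in 32.9% of all genes. The 27025 genes were not limited to those tested or expressed here, so these shares do not set the members apart from other expressed genes. Matches are a description of letters and not of binding, and absence from this window says nothing of the factor. The 3 promoters below are the gene that passed (Dhcr7), the sterol gene with the highest fitted fold change (Cyp51) and the carrier of the element (Hmgcs1), written 5′ to 3′ on the strand of the gene, with matches to any of the 3 motifs in capitals. None of these matches overlap.
Dhcr7: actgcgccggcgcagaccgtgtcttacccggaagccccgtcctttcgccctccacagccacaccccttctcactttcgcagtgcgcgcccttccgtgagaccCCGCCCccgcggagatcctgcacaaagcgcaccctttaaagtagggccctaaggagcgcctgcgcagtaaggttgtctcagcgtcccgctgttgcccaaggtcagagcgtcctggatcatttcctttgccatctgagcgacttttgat
Cyp51: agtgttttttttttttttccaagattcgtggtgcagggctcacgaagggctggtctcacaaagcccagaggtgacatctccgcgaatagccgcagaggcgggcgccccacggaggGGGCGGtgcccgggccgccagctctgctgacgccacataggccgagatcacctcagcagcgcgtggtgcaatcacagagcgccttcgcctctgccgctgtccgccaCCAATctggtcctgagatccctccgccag
Hmgcs1: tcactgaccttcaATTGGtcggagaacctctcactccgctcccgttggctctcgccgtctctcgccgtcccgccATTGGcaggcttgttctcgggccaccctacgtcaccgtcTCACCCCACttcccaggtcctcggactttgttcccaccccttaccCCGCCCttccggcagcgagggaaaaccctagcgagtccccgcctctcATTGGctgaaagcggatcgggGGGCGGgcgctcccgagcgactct
The promoter of Dhcr7 (chr7:143822917-143823166, + strand) held a GC box at 148 to 143 bases before the start and neither of the other motifs. That of Cyp51 (chr5:4104698-4104947, - strand) held a GC box at 135 to 130 bases and a CCAAT box at 29 to 25 bases before the start. That of Hmgcs1 (chr13:119690101-119690350, + strand) held the sterol element at 137 to 129 bases before the start, with 3 CCAAT boxes and 2 GC boxes.

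**Figure D2:**
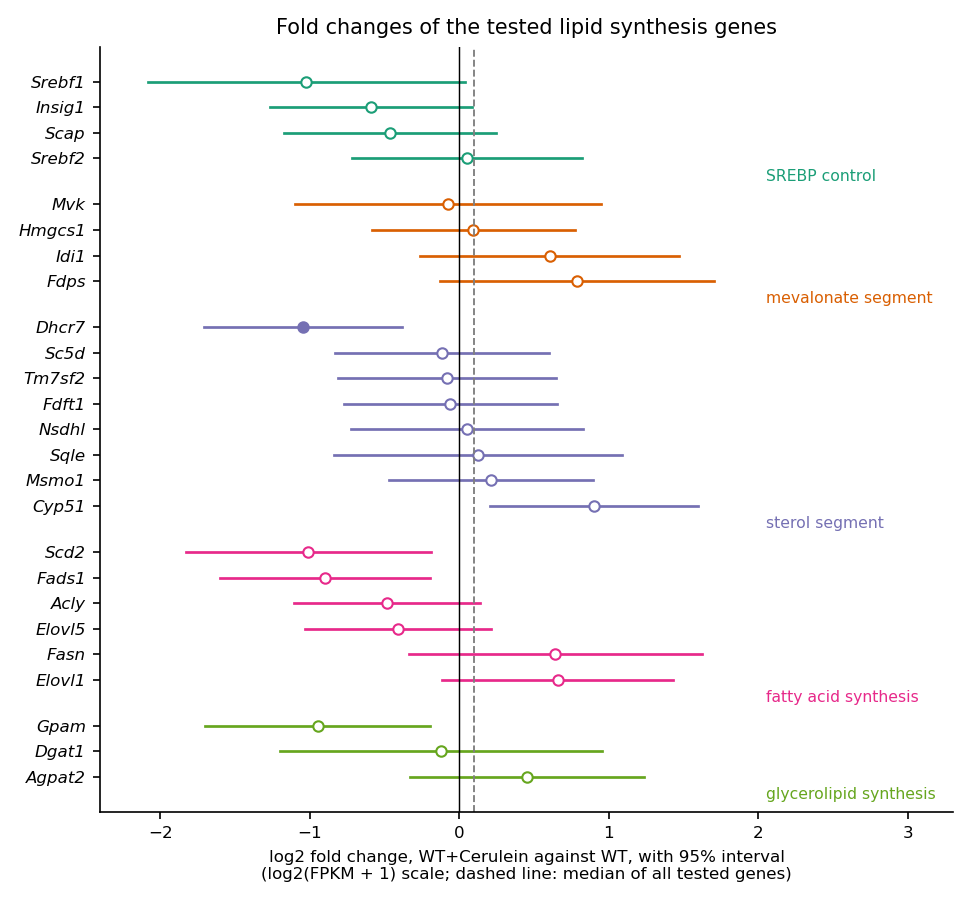
Points are log2 fold changes of WT+Cerulein against WT for the 25 tested members, on the log2(FPKM + 1) scale of the horizontal axis, and lines are 95% intervals. Colours give the role, the filled point marks the call (Dhcr7, -1.05) and the dashed line is the median of all tested genes (0.10).

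In fatty acid synthesis, 6 of the 11 genes were tested and none passed. The groups did not overlap for 4 of the 6, all with cerulein below WT, where 15.0% of all tested genes stood apart in that direction. The median log2 fold change of the 6 was -0.45 as deposited and 0.05 with scaling outside the secreted proteins, so its sign rests on the scaling. Acly, which makes cytosolic acetyl-CoA from citrate, was at 10.4, 7.85 and 7.89 FPKM in WT and at 6.23, 5.24 and 6.27 FPKM after cerulein. Its groups stood apart by a small step (log2 fold change -0.48, limma adjusted p 0.29). Acaca, the carboxylase of the committed step, lay under the filter, at 0.548, 0.223 and 0.823 FPKM in WT and at 0.720, 0.794 and 0.843 FPKM after cerulein. Fasn, the fatty acid synthase, was at 8.36, 2.45 and 2.20 FPKM in WT and at 9.77, 4.74 and 5.32 FPKM after cerulein. WT library 1 lay within the cerulein range and the other WT libraries below it, giving a log2 fold change of 0.64 (limma adjusted p 0.381). Without WT library 1 the log2 fold change of Fasn was 1.14 and passed (limma adjusted p 0.033).

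Genes that desaturate and lengthen the chain had fitted changes of both signs, none of which passed in the main fit. Differences between these genes were not tested. Scd2, a stearoyl-CoA desaturase that puts in the first double bond and the member of highest mean level in WT among those placed in every library, was at 27.3, 10.9 and 16.6 FPKM in WT and at 10.8, 6.11 and 7.63 FPKM after cerulein. Every cerulein library lay below every WT library, although WT library 2 and cerulein library 1 nearly met (limma log2 fold change -1.01 with SE 0.37, adjusted p 0.101). Fads1, a desaturase of polyunsaturated fatty acids, was at 16.3, 10.1 and 13.8 FPKM in WT and at 9.01, 6.37 and 5 FPKM after cerulein. Those groups were apart as well (limma log2 fold change -0.90 with SE 0.32, adjusted p 0.09), and the difference passed with a filter of 5 FPKM, which left 2124 genes to adjust over (limma adjusted p 0.0471). The elongase Elovl5 had a log2 fold change of -0.41, and the elongase Elovl1, which shares exon bases with the cell cycle gene Cdc20, had one of 0.66. Elovl1 passed as higher with scaling outside the secreted proteins (log2 fold change 1.15, limma adjusted p 0.0365). Elovl6, which lengthens the product of the synthase, was under the filter at 0.149, 0 and 0.106 FPKM in WT, from 3, 0 and 2 fragments. After cerulein it was at 0.645, 1.12 and 0.275 FPKM, from 24, 84 and 30 fragments, so every cerulein library lay above every WT library. With no filter its limma adjusted p was 0.166, and the count of 0 in WT library 2 allowed up to 0.128 FPKM.

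The desaturases Scd1 and Fads2 had WT values that could not be placed. For Scd1 the likeliest values were 11.8, 9.52 and 3.61 FPKM in WT and 9.48, 5.18 and 6.86 FPKM after cerulein, with WT library 3 short of the accepted posterior of 0.95. For Fads2 they were 25.8, 5.01 and 8.82 FPKM in WT and 10.1, 7.29 and 5.47 FPKM after cerulein, with WT libraries 2 and 3 short of it. The groups overlapped for both genes at these values. At a posterior of 0.80, a setting chosen after seeing the data, Insig2, Scd1 and Fads2 entered the fit with log2 fold changes of 0.33, -0.10 and -0.47 and limma adjusted p of 0.615, 0.905 and 0.585. Acss2, which makes acetyl-CoA from acetate, was under the filter in overlapping groups.

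In glycerolipid synthesis, which esterifies fatty acids onto glycerol, 3 of the 5 genes were tested and none passed. Gpam, the mitochondrial acyltransferase of the first step, was at 5.75, 2.43 and 3.2 FPKM in WT and at 1.96, 1.23 and 1.05 FPKM after cerulein. All cerulein libraries lay below all WT libraries (limma log2 fold change -0.95 with SE 0.34, adjusted p 0.0925). With limma-voom on the restored fragments Gpam passed as lower (log2 fold change -1.39, limma adjusted p 0.035). Lpin1, the phosphatidate phosphatase, was under the filter at 1.15, 0.866 and 1.04 FPKM in WT and at 0.580, 0.688 and 0.353 FPKM after cerulein. Its groups did not overlap either, with a limma adjusted p of 0.389 when no filter was used.

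The acyltransferases that finish triglyceride showed overlapping or low levels. Dgat1 was at 1.82, 7.60 and 0.922 FPKM in WT and at 2.03, 2.79 and 2.14 FPKM after cerulein, where the high value of WT library 2 came from 13 fragments. The cerulein values lay inside the WT range (log2 fold change -0.12, 95% interval -1.20 to 0.95). Dgat2 was under the filter at 0.819, 0.951 and 0.434 FPKM in WT and at 0.418, 0.455 and 0.464 FPKM after cerulein. Agpat2, which adds the second fatty acid, had a log2 fold change of 0.45 and did not pass.

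Ordered by mean level in WT, the members placed in every library began with Scd2 (18.3 ± 8.34 FPKM, SD, n = 3), Insig1 (13.7 ± 3.41), Fads1 (13.4 ± 3.09), Fdft1 (12.6 ± 4.17) and Scap (12.5 ± 4.45). Neighbours in that order differed by less than the larger of their SDs. After cerulein the order began with Fdft1 (11.6 ± 1.00 FPKM), Elovl1 (9.47 ± 3.03), Insig1 (8.72 ± 1.89), Scap (8.50 ± 1.52) and Scd2 (8.19 ± 2.41), and the same held for its neighbours. Mean levels under 1 FPKM were found for 10 of the 35 members in WT and for 9 after cerulein. WT library 1 held the highest WT value for 11 of the 25 tested members (44.0%), beside 39.2% of all tested genes.

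How the libraries were scaled set the level of these fold changes. FPKM divide by a library total in which the secreted acinar proteins weighed heavily in WT. Scaled to the sum outside those proteins, the median over all tested genes moved from 0.10 to 0.49 (log2 fold change), and that of the members moved from -0.08 to 0.36. Relative to the median of all genes, the members stood at -0.17 as deposited and at -0.13 with that scaling. The calls over all genes were 504 higher and 407 lower as deposited, and 1490 higher and 222 lower with that scaling. Under it 3 members passed as higher (Cyp51, Elovl1 and Fdps) and none as lower, where 21.0% of the genes tested passed as higher. Fdps had a log2 fold change of 1.21 and a limma adjusted p of 0.0391 there. Without WT library 1 the members' median was 0.06, the same as the median of all genes, and without WT library 3 it was -0.35.

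**Figure D3:**
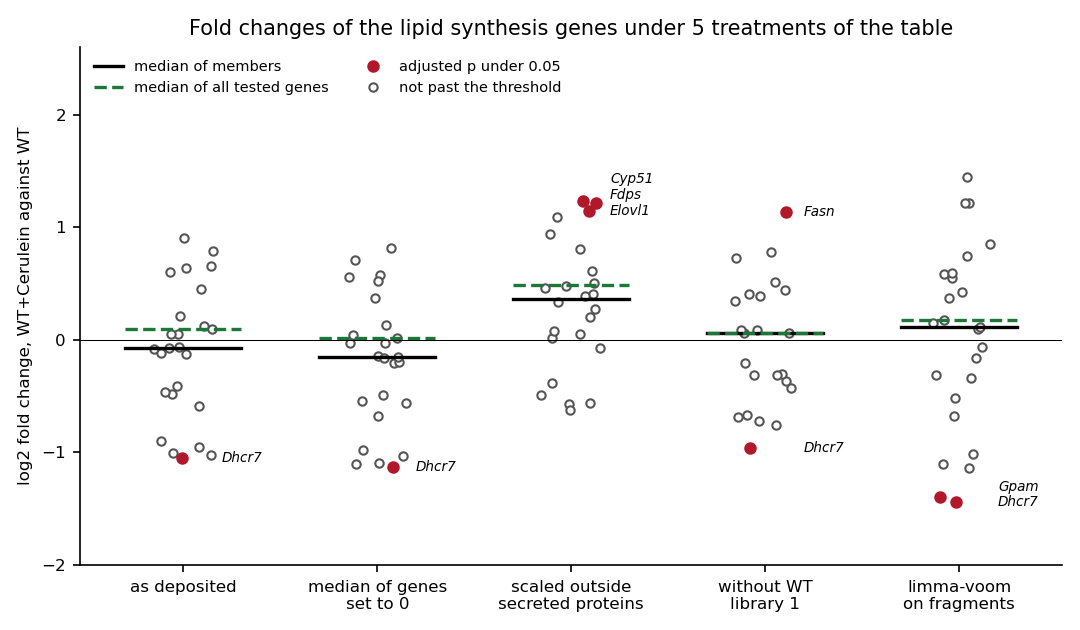
Points are log2 fold changes of the tested members (vertical axis) under 5 treatments of the table, filled where the limma adjusted p was under 0.05. Solid bars are medians of the members and dashed bars are medians of all tested genes. Scaling outside the secreted proteins lifts both medians, to 0.36 and 0.49, and the named genes that pass differ between the treatments.

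Genes around synthesis were read from 6 companion lists with 85 tested genes, of which 11 rose and 2 fell. Together these are 15.3% of the 85, near the 13.2% called among all tested genes. None of the 10 tested genes among the other sterol synthesis and SREBP modulators passed, and their median log2 fold change was -0.14. In cholesterol transport, storage and oxysterols, 4 of the 11 tested genes rose, with a median of 0.99 over the list. Abca1, which exports cholesterol, was at 3.05, 2.47 and 1.02 FPKM in WT and at 6.28, 7.02 and 6.66 FPKM after cerulein (limma log2 fold change 1.33 with SE 0.33, adjusted p 0.0253). Npc2, which carries cholesterol out of lysosomes, rose by a log2 fold change of 1.08, Lipa, the lysosomal lipase of cholesterol esters, by 1.38, and the lipoprotein receptor Lrp1 by 2.01. For each of these 4 genes every cerulein library lay above every WT library. The groups of Lrp1 nearly met, at 5.14, 0.586 and 0.0457 FPKM in WT and at 9.90, 5.20 and 8.77 FPKM after cerulein. These calls were lost without WT library 2 (limma adjusted p 0.0523 to 0.141) and without cerulein library 1, 2 or 3 (0.0559 to 0.241), and those of Lipa and Lrp1 also without WT library 3 (0.0582 and 0.113). With no filter all 4 were lost (limma adjusted p 0.0748 to 0.158), with a pseudocount of 0.1 those of Lipa and Lrp1 (0.072 and 0.0852), and that of Npc2 with the replicate block (0.0529) and with the median ratio set to 0 (0.0501). In WT, Lipa and Lrp1 reached 1 FPKM only in library 1, so they passed the filter only with the cerulein libraries, where they were high. Macrophage and fibroblast markers rose in the same libraries, and their part in these values was not tested.

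Genes that supply or burn fatty acids passed in both directions. Among the 18 tested supply and elongation partners 4 rose and 1 fell, with a list median of 0.03, beside 504 higher and 407 lower of the 6891 genes tested in all. Pgd and Me1, which make the NADPH that synthesis uses, rose by log2 fold changes of 1.51 and 1.40, and the acyl-CoA synthetases Acsl4 and Acsl5 rose by 1.33 and 1.22. Mlxipl, which encodes the carbohydrate-responsive factor ChREBP, fell from 3.96, 1.72 and 1.92 FPKM in WT to 0.285, 0.417 and 0.428 FPKM after cerulein (limma log2 fold change -1.31 with SE 0.32, adjusted p 0.0223). Without cerulein library 2 the calls of Pgd, Acsl4, Acsl5 and Mlxipl were lost (limma adjusted p 0.0706, 0.11, 0.132 and 0.111). Without cerulein library 3 those of Acsl4, Acsl5 and Mlxipl were lost (0.101, 0.11 and 0.11), and without cerulein library 1 those of Acsl5 and Mlxipl (0.0542 and 0.0915). With no filter those of Acsl5 and Mlxipl were lost too (0.0536 and 0.0876). The call of Mlxipl thus held in none of the 3 fits with 1 library left out that tested it. Mlxipl reached 1 FPKM only in the WT libraries and Me1 only in the cerulein libraries. Each of these 2 genes therefore entered the test only through the group where it was high. Acsl5 reached 1 FPKM in WT only in library 1 (1.15 FPKM), so its test rested on the cerulein libraries as well.

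Storage and oxidation each had 1 call, among 9 and 19 tested genes, where 13.2% of all tested genes were called. Plin2, a coat protein of lipid droplets, was at 0.804, 3.72 and 0.263 FPKM in WT and at 7.51, 15.1 and 11.4 FPKM after cerulein (limma log2 fold change 2.43 with SE 0.47, adjusted p 0.00861), and was the only one of 9 tested droplet and lipolysis genes to pass. Of the 19 tested oxidation genes reported here, 1 fell. Ehhadh, an enzyme of peroxisomal fatty acid oxidation, fell from 5.59, 9.37 and 8.15 FPKM to 1.52, 1.63 and 0.769 FPKM (limma log2 fold change -1.91 with SE 0.32, adjusted p 0.00415). For both genes the groups were apart, and the calls held in every fit that left out 1 library, as that of Me1 did in the 3 such fits that tested it. With no filter on low values the calls of Plin2 and Me1 were lost (limma adjusted p 0.0644 and 0.0637). Plin2 reached 1 FPKM in WT only in library 2, so it passed the filter only with the cerulein libraries, where it was high.

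Among 18 tested genes of other glycerolipid and phospholipid synthesis 2 rose and none fell, a share no higher than the 13.2% called among all tested genes. Lpin2, a second phosphatidate phosphatase, was at 1.41, 1.26 and 1.92 FPKM in WT and at 5, 4.70 and 4.49 FPKM after cerulein (limma log2 fold change 1.19 with SE 0.28, adjusted p 0.0199). All of its cerulein libraries lay above the WT libraries. Ptdss2, a phosphatidylserine synthase, rose by a log2 fold change of 1.05 (limma adjusted p 0.0443), and reached 1 FPKM, and so the test, only through the cerulein libraries. Both calls were lost without WT library 2 (limma adjusted p 0.0554 and 0.102), and that of Lpin2 also without cerulein library 1, 2 or 3 (0.0765, 0.12 and 0.11). The call of Ptdss2 was lost as well with a pseudocount of 0.1 (limma adjusted p 0.122), no filter (0.118), the median ratio set to 0 (0.0549), the replicate block (0.0574) and limma-voom (0.113).

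**Figure D4:**
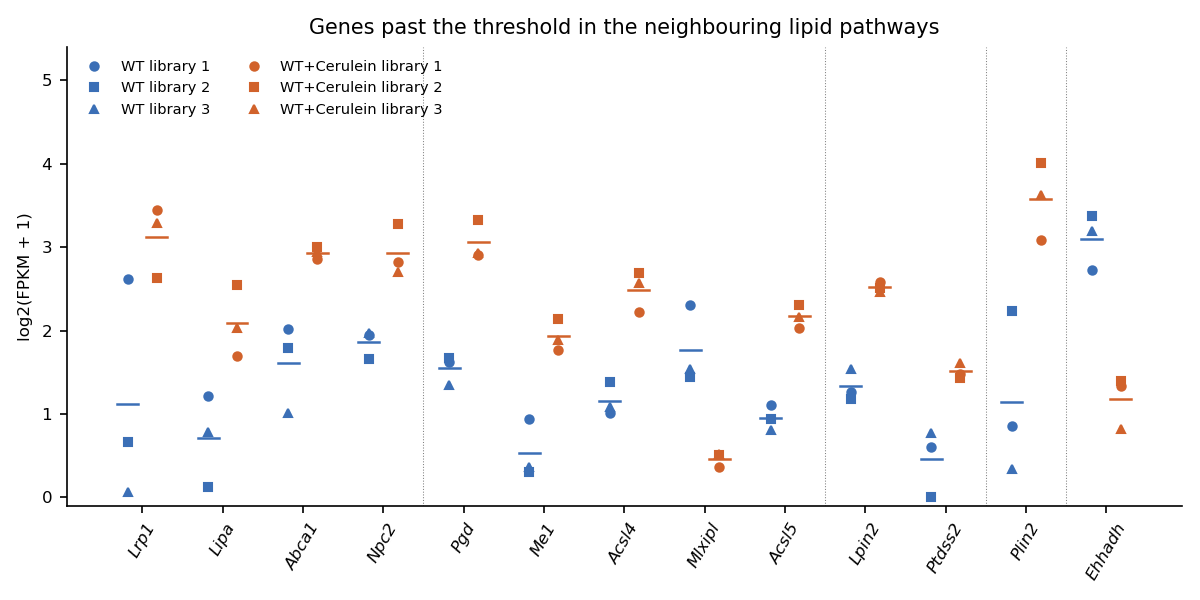
Each point is the level of 1 gene in 1 library, as log2(FPKM + 1), for the 13 genes of the companion lists that passed the threshold. Blue is WT, orange is WT+Cerulein, symbols give the library number, short bars are group means and dotted lines divide the lists. Plin2 is higher and Ehhadh and Mlxipl are lower in every cerulein library than in any WT library.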

How the data were processed

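The deposited table holds FPKM per protein-coding transcript, 1 column per library. Per the submitters' processing notes, fastp, HISAT2, featureCounts and DESeq2 were used with build mm10; the tool behind the FPKM was not given in the sources used here. Deposited values, recorded as another unit than FPKM, had lost the decimal mark in 18.0% to 21.4% of cells, and values under 0.0001 were 100000 times too large. The planned FPKM test was applied to restored values. FPKM times effective length (GENCODE vM21) is a whole number of fragments; 71.1% to 74.1% of intact single-transcript genes were whole within 0.01 fragments, against 2% by chance. Positions were weighed by wholeness and by agreement within the group (spread 0.6 log2) and accepted at a posterior of 0.95. Hidden intact cells were placed in 518 of 665 cases, 517 rightly. Because agreement within the group enters, spread may be understated. Of 8939 genes over the filter 2048 were not placed and not tested.

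Differences were fitted with limma 3.58.1 (R 4.3.3, intensity trend) on log2(FPKM + 1), which understates changes of low genes. Scripts (Python 3.11.15) were tested on simulated data. Intervals of fold changes are limma's and reflect the spread between libraries; floors cover counting error only. Values in every library are given for members fixed by role, for any other member past the threshold and for those not placed; companion lists give up to 5 genes past it, by size of change. Members and lists were chosen with earlier results of these data known. Library numbers were not treated as pairs. A gene of the companion lists is not reported here.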

Additional observations from a re-analysis of the deposited data

How the results depend on the processing

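Over 17 alternatives, 1 of them chosen after seeing the data (posterior 0.80), 350 of 389 fitted values of single members kept their direction and side of the threshold, 7 lost it, 7 gained it and 25 changed sign, none of the last past the threshold. Only Dhcr7 was past the threshold in the main fit, so all 7 losses were its own. Its call held in 9 of the 16 alternatives that tested it. For every other member, staying under the threshold counted as kept. The count of all genes called, 911, was 397 with no filter, 1712 with scaling outside the secreted acinar proteins and 417 with a replicate spread of 1.5, and 206 to 1627 with 1 library left out (lowest without cerulein library 2, highest without WT library 1). A replicate spread of 1.5 in place of 0.6 log2 left 3937 genes and 13 members to test, beside 6891 genes and 25 members in the main fit. The other members of the main fit were not tested at 1.5, so their entry into the test depended on the spread assumed. Members called higher numbered 3 with the outside scaling and 0 to 1 with 1 library left out. Members called lower numbered 0 with a pseudocount of 0.1, with no filter and with the outside scaling, 2 with limma-voom on fragments, and 0 to 1 with 1 library left out. The members' median was -0.466 with a filter of 5 FPKM, 0.361 with the outside scaling, 0.117 with limma-voom and -0.346 to 0.061 with 1 library left out. The replicate block called 935 genes and kept 0 members higher and 1 lower (Dhcr7), and among the companion genes named it ended the calls of Npc2 and Ptdss2 (limma adjusted p 0.0529 and 0.0574); same-numbered libraries deviated together with correlations of 0.148, 0.129 and -0.0499, so the numbers were not taken as pairs.

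The log2 fold changes that changed sign were, with the outside scaling, Scap 0.05, Mvk 0.207, Fdft1 0.464, Sc5d 0.333, Acly 0.015, Elovl5 0.076 and Dgat1 0.277. With limma-voom they were Mvk 0.597, Tm7sf2 0.42 and Dgat1 0.373, with the pseudocount Mvk 0.437, and with the median ratio set to 0 Srebf2 -0.03 and Nsdhl -0.028. With 1 library left out, values ran from -0.131 to 0.407 for Srebf2, -0.072 to 0.27 for Hmgcs1, -0.622 to 0.125 for Mvk and -0.347 to 0.104 for Fdft1. They ran from -0.397 to 0.513 for Sqle, -0.252 to 0.349 for Nsdhl, -0.312 to 0.14 for Sc5d and -0.577 to 0.504 for Dgat1. The cause of these changes was not tested. WT libraries, with fewer fragments per FPKM, limit the precision of members near 1 FPKM. For the 4 members not placed the groups overlapped when every possible placement was allowed. The same was so for Dhcr7, because possible placements span a wide range, so this overlap cannot tell whether groups differ.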
